A study of Mus musculus with 12 samples.

Results

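Fos, Fosb, Fosl2, Jun, Junb, Jund, Egr1, Ier2, Atf3 and Btg2 are subunits of the AP-1 transcription factor and other immediate early genes, taken here as a set by their symbols. They are 10 of the 23413 genes in a table of RNA-seq read counts from mouse alveolar macrophages, which live in the air spaces of the lung. All 10 passed the filter on low counts, which left 12748 genes to test.

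The 12 libraries form 6 groups of 2. Wild-type (WT) alveolar macrophages were cultured for 24 h with 50 nM vitamin D3 (VD3), or for 24 h without it. The other 8 libraries are fresh lavage cells: Vdr knockout (KO) and WT mice aged 10 weeks, and Vdr KO and WT mice aged 4 weeks. Vdr encodes the vitamin D receptor, a nuclear receptor that VD3 metabolites activate, and the series asks what the receptor and its ligand do in these cells. The labels name the allele only as a VDR knockout, and give neither the strain nor the sex of the mice, nor the age of those whose cells were cultured. Nothing in the labels says that the libraries of a group are separate animals, and every p-value here rests on the spread between those libraries, some of which may be technical.

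AP-1 is a dimer of a Jun protein with a Fos protein or with a relative from the ATF family, and it binds short DNA sites in the control regions of many genes. Genes for Fos and Jun proteins, Egr1, Ier2, Atf3 and Btg2 are switched on within minutes by growth factors, pathogens, adhesion, shear and other stress, through MAP kinases and the factors SRF, ELK1 and CREB, with no need for new protein. Their messages are short-lived, so their levels follow recent signals to the cell, and in macrophages they precede or accompany inflammatory gene expression. Isolating cells from tissue can itself induce such genes.

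Promoters are shown for 6 of the genes because the factors named above act through such regions. Each run holds the 180 bases before the RefSeq start of the gene (assembly GRCm38.p6, whereas the deposited counts were made on mm9), 5′ to 3′ on the strand of the gene. Capitals mark TGACG, the core of the site that CREB, ATF and AP-1 proteins share, on either strand (it reads CGTCA in Atf3, where it lies on the opposite strand); in Btg2 they mark the full palindrome TGACGTCA and in Jun the variant TGACATCA.
Fos, chr12:85473710-85473889, + strand: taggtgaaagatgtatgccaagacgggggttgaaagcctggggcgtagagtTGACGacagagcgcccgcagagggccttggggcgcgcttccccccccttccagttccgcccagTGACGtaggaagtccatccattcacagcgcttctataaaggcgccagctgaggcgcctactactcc
Fosb, chr7:19310046-19310225, - strand: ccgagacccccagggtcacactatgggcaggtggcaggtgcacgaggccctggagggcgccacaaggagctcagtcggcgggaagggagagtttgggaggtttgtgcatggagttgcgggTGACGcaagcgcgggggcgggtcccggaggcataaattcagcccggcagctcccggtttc
Jun, chr4:95052223-95052402, - strand: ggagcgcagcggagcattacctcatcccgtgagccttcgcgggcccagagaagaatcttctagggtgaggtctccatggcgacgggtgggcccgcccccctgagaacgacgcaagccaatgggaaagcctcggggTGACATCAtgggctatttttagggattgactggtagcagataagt
Junb, chr8:84978749-84978928, - strand: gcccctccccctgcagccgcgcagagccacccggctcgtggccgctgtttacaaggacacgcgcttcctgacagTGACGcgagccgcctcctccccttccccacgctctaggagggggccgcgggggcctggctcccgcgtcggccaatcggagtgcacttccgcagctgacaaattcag
Atf3, chr1:191183334-191183513, - strand: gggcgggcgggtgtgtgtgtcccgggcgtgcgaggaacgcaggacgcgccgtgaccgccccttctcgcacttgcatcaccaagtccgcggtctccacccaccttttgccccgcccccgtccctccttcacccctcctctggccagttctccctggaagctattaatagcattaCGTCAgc
Btg2, chr1:134079156-134079335, - strand: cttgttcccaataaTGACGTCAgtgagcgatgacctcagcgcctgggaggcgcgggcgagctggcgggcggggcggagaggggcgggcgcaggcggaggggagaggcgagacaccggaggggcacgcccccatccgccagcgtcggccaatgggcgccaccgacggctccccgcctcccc
In the 250 bases before the start, the TGACG core was found on either strand in 5 of the 8 genes with a RefSeq window (Fos, Fosb, Junb, Atf3 and Btg2), against 17.8% of all 32851 mouse windows of that length. The palindrome TGACGTCA, which holds that core on both strands, was in Btg2 alone of the 8 and in 1.55% of windows. TGACATCA was in Jun and in 2.93% of windows. The AP-1 site TGANTCA was in 0 of the 8 (6.75% of windows), the SRF site known as the CArG box in 0 (1.47%) and the DR3 element of the vitamin D receptor in 0 (0.222%), each on both strands. These matches describe letters in a short window, and sites further upstream were not searched. The windows of Fosl2 and Jund are among the 8. They were not printed because their RefSeq starts lie 671 and 1210 bases from the GENCODE starts. Egr1 and Ier2 had no RefSeq window and were not searched.

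Library totals ran from 10409572 to 23233674 counts, and chi-square per degree of freedom between replicates of a group from 10.1 to 53.95, so no pair looked like 1 library deposited again. Levels are given as CPM, normalised counts scaled between libraries by the trimmed mean of M values. Vdr message itself was at 84.2 and 45.0 CPM in libraries labelled KO at 10 weeks, against 79.6 and 127 CPM in those labelled WT, and at 45.9 and 31.3 CPM in KO libraries at 4 weeks, against 56.5 and 57.7 CPM in WT. Which part of Vdr was deleted is not stated, and a count over the whole gene does not check the genotype. For 10-week KO replicate 1 and 10-week WT replicate 2, a sample code in the labels names the other genotype. The genotype label was followed. For part of the results that rest on these libraries, values are also given without them or with their labels exchanged. The 10-week pairs also mix sexes: Xist was at 787 CPM in KO replicate 2 and 800 CPM in WT replicate 2, and under 1 CPM in the other 10 libraries. The alveolar macrophage markers (11 of 13 listed symbols in the table) summed to between 12140 and 14050 CPM in culture and between 23550 and 43390 CPM in fresh libraries, and none of these 11 was at 0 in both libraries of any group.

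Per length, on a scale of CPM per kilobase of exon that allows genes to be compared, Atf3 (133), Jund (99.9) and Junb (78.8) stood highest after culture without VD3, with Fos at 16.9 and Fosb at 0.0466. In fresh WT cells at 10 weeks the same scale was led by Jund (225) and Fos (174), followed by Junb (94.97), Ier2 (64.1), Btg2 (56.1), Fosl2 (48.4), Jun (36.7), Atf3 (8.58), Egr1 (7.58) and Fosb (3.91).

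**Figure D1:**
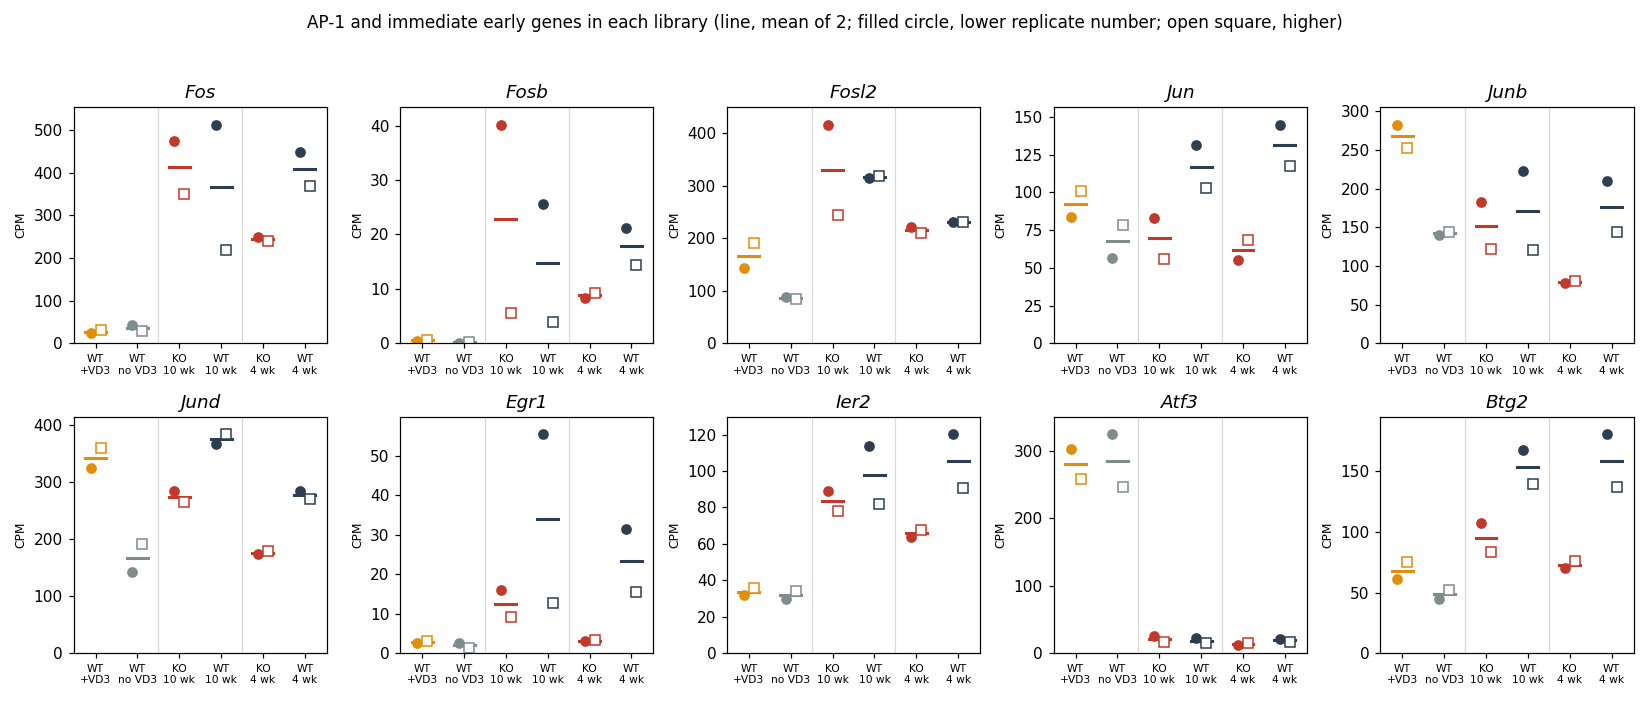
Level of each gene in CPM (vertical axes, linear from 0) in the 12 libraries, by group; lines are means of 2 libraries, filled circles the lower and open squares the higher replicate number. Atf3 exceeded 245 CPM in all 4 cultured libraries and stayed under 27 CPM in all 8 fresh ones, and both 4-week KO libraries lay below both 4-week WT libraries for all 10 genes.

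At 4 weeks, all 10 genes had lower means in KO than in WT cells. With edgeR's quasi-likelihood test and Benjamini-Hochberg adjustment over all genes, Btg2 and Jund fell, which is 2 of 10 members where 0.196% of all genes tested were called lower and 0.667% in either direction. For 10 of 10 members both KO libraries lay below both WT libraries, which held for 24.6% of all genes. The median log2 difference of the members was -0.87, against -0.0066 over all genes tested.

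Btg2, an antiproliferative gene whose protein recruits the deadenylase that shortens messenger RNA tails, was at 70.3 and 75.8 CPM in KO cells, against 181 and 137 CPM in WT cells. The groups were far apart, with a fitted KO level 0.46 times that of WT (log2 fold change -1.12 ± 0.17 SE, adjusted p = 0.0123). Jund, the Jun protein that is also present in resting cells and can restrain growth, was at 174 and 179.6 CPM in KO cells, against 285 and 269.9 CPM in WT cells. Its replicates were close in each group, and the fall was smaller (-0.65 ± 0.13, adjusted p = 0.0496). Jund lost its call when any 1 of the 4 libraries was left out (adjusted p 0.137 to 0.343), and Btg2 kept it only without WT replicate 2 (0.0190; 0.116 without WT replicate 1, 0.154 and 0.128 without KO replicates 1 and 2). Leaving out both 10-week libraries with conflicting codes, which share in the estimate of spread, gave Btg2 an adjusted p of 0.0103 and Jund one of 0.0794. With the labels of these libraries exchanged both lost their calls (0.121 for Btg2 and 0.232 for Jund), and Junb was the 1 member called (-1.16, adjusted p = 0.0103).

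The size of the difference was greatest for Egr1, a zinc finger factor that SRF and ELK1 induce. Egr1 was at 3.10 and 3.22 CPM in KO cells, against 31.3 and 15.5 CPM in WT cells; the KO libraries were alike and the WT libraries far apart (-2.88 ± 0.62, adjusted p = 0.0673). Junb, a Jun protein that macrophages induce strongly with bacterial products, was at 77.6 and 80.3 CPM in KO cells, against 209 and 144 CPM in WT cells (-1.16 ± 0.27, adjusted p = 0.0868). Jun, the founding member of the family, was at 55.3 and 68.2 CPM in KO cells, against 145 and 117 CPM in WT cells (-1.09 ± 0.22, adjusted p = 0.0503). These 3 did not pass the threshold, although their groups did not overlap. Without both 10-week libraries in conflict all 3 passed (adjusted p 0.00750 for Egr1, 0.0108 for Junb and 0.0314 for Jun).

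The Fos proteins, which need a Jun partner to bind DNA, spanned a wider range. Fos was at 248 and 240.5 CPM in KO cells, against 448 and 369 CPM in WT cells (-0.74 ± 0.32, adjusted p = 0.386), and Fosb at 8.41 and 9.25 CPM, against 21.2 and 14.4 CPM (-1.01 ± 0.78, adjusted p = 0.672). Fosl2, which encodes FRA-2, was at 222 and 211 CPM in KO cells, against 231 and 232 CPM in WT cells (-0.10 ± 0.20, adjusted p = 0.902), the smallest difference of the set. Ier2, which encodes a nuclear protein, was at 63.9 and 67.6 CPM in KO cells, against 120.2 and 90.5 CPM in WT cells (-0.68 ± 0.17, adjusted p = 0.118). Atf3, an ATF factor of stress responses that dampens inflammatory genes in macrophages, was at 12.3 and 14.4 CPM in KO cells, against 21.5 and 16.8 CPM in WT cells (-0.51 ± 0.25, adjusted p = 0.457). None of these 5 passed, and 7 of the 10 members had an unadjusted p under 0.05, against 1525 of the 12748 genes tested.

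Calls in the related lists at 4 weeks were few, as over all genes, and do not show that these genes stayed level. Of the other AP-1 proteins and dimer partners 0 of 12 tested were called in either direction, of other immediate early transcription factors 0 of 13 (12 of the 13 had negative differences, median -0.29), and of the MAP kinase, SRF and CREB pathway 0 of 25. Among 25 tested feedback and signalling genes of the early response 19 had negative differences (median -0.28), and 1 was called: Nfkbia, the inhibitor of NF-κB, rose, with 179.5 and 156 CPM in KO cells, against 82.0 and 90 CPM in WT cells (0.97 ± 0.14, adjusted p = 0.00819; called in 1 of 4 fits that left out a library, highest adjusted p 0.114). Of 12 genes with known AP-1 sites, 1 was called, Hmox1, heme oxygenase, which rose to 985 and 991 CPM in KO cells, against 231 and 152 CPM in WT cells (2.37 ± 0.18, adjusted p = 0.000112). None of 12 heat shock genes was called. With the labels of the 10-week libraries in conflict exchanged, Nfkbia was not called (0.97, adjusted p = 0.0557). Hmox1 was still called in that fit (2.37, adjusted p = 0.00183).

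Markers of other cells differed between the same 4-week groups. Erythroid markers (6 symbols) summed to between 348 and 643 CPM in KO cells and between 1330 and 3149 CPM in WT cells. Dendritic cell markers (8 symbols) summed to between 18.8 and 19.9 CPM in KO and between 35.3 and 99.8 CPM in WT cells, with Cd209a at 0 in both KO libraries, and T cell markers (7 of 8 symbols in the table) to between 131 and 139.8 CPM in KO and between 186 and 212 CPM in WT cells. Alveolar macrophage markers summed to between 31160 and 43390 CPM in KO and between 26850 and 29550 CPM in WT cells. The part of these differences in the results was not tested, and in bulk libraries fewer cells of a type and less RNA per cell cannot be told apart.

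**Figure D2:**
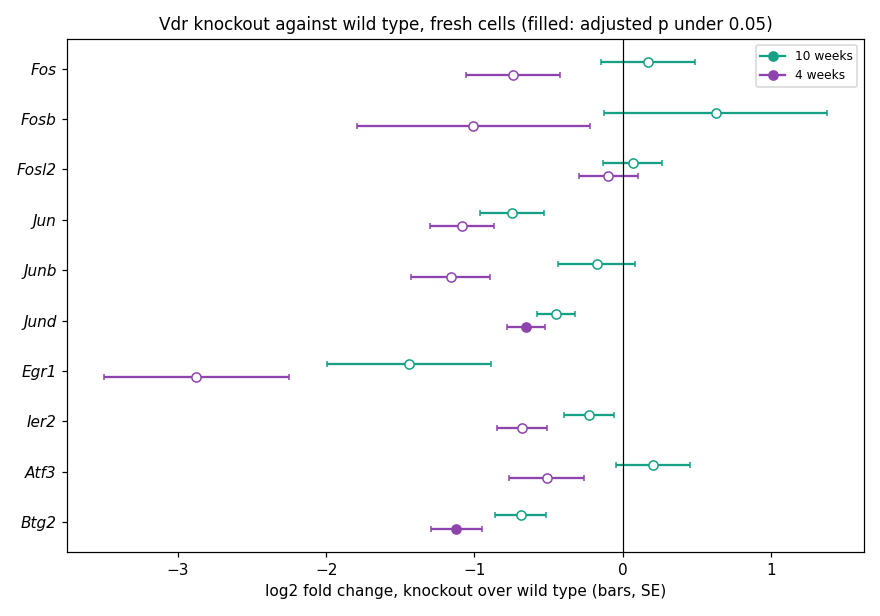
Log2 fold change of Vdr KO over WT in fresh cells (horizontal axis; points left of 0 are lower in KO) for each gene at 10 and 4 weeks, with bars of 1 SE; filled points have an edgeR adjusted p under 0.05. All 10 points at 4 weeks lie left of 0, with Btg2 and Jund filled, and no point at 10 weeks is filled.

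At 10 weeks, 0 of the 10 genes were called between libraries labelled KO and WT by edgeR's quasi-likelihood test, where 0.110% of all genes were called in either direction; 4 had an unadjusted p under 0.05, against 9.76% of all genes. DESeq2's Wald test, which called 137 genes here, called 2 members (Jun and Btg2, adjusted p 0.0411 and 0.0141). In 3 members, Btg2, Jun and Jund, both KO libraries lay below both WT libraries, against 20.9% of all genes, and the median difference of the 10 was -0.20, against -0.0083 over all genes. Btg2 was at 108 and 83.2 CPM in KO, against 168 and 139.9 CPM in WT (-0.69 ± 0.17, adjusted p = 0.177). Jun was at 83.1 and 56.2 CPM in KO, against 131 and 103 CPM in WT (-0.74 ± 0.22, adjusted p = 0.241). Jund was at 284 and 266 CPM in KO, against 368 and 384 CPM in WT (-0.45 ± 0.13, adjusted p = 0.233).

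For the other 7 genes the 10-week groups overlapped, and replicates with the same label were far apart. Fos was at 474 and 350 CPM in KO, against 512 and 219 CPM in WT, and Fosb at 40.2 and 5.51 CPM in KO, against 25.6 and 3.96 CPM in WT. Egr1 was at 15.9 and 9.04 CPM in KO, against 55.4 and 12.6 CPM in WT (-1.44 ± 0.55, adjusted p = 0.396). Fosl2 was at 417 and 245 CPM in KO, against 315 and 319 CPM in WT, so that the WT libraries were close and lay between the KO libraries. Junb was at 183 and 122 CPM in KO, against 223 and 121 CPM in WT (-0.18 ± 0.26, adjusted p = 0.887), Ier2 at 89.0 and 78.1 CPM in KO, against 114 and 81.6 CPM in WT (-0.23 ± 0.17, adjusted p = 0.744), and Atf3 at 26.0 and 16.5 CPM in KO, against 22.4 and 14.6 CPM in WT. Replicate 1 was the higher of the pair for 10 of 10 members in KO and for 8 of 10 in WT. At this age the replicate number goes with sex and with the 2 number series in the library titles, so these cannot be told apart. The median absolute log2 difference between replicates was 0.576 for members and 0.202 for all genes in KO, and 0.548 and 0.171 in WT.

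Within each pair of the same sex and title series, the KO minus WT difference on the log2 scale had the same sign for 7 of 10 members. It was -0.66 in the pair of replicates 1 and -0.87 in the pair of replicates 2 for Jun, -0.37 and -0.53 for Jund, -0.64 and -0.75 for Btg2, and -1.80 and -0.48 for Egr1. Fos changed sign (-0.11 and 0.68), as did Fosl2 (0.41 and -0.38) and Junb (-0.29 and 0.0043). Without both libraries of conflicting codes, differences were negative for Fos (-0.55), Fosb (-2.22), Fosl2 (-0.36) and Atf3 (-0.45), which are 0.17 ± 0.32, 0.63 ± 0.75, 0.07 ± 0.20 and 0.21 ± 0.25 with them; with the 2 labels exchanged Fosb was called (-2.80, adjusted p = 0.00213). In the authors' deposited table of log2(CPM + 1) values, which lists 9 members and not Fosb, columns named for 10-week KO differed from those named for WT by -0.71 for Btg2, -0.78 for Jun, -0.47 for Jund, -1.11 for Egr1 and 0.26 for Fos.

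Markers of other cells differed between the 10-week groups as well. Dendritic cell markers summed to between 27.2 and 29.3 CPM in KO and between 62.3 and 80.2 CPM in WT, and epithelial markers (8 symbols) to between 303 and 414 CPM in KO and between 181 and 222 CPM in WT; their part was not tested.

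Averaged over both ages, 4 members fell in KO cells, where 0.384% of all genes were called lower and 0.996% in either direction. Btg2 had a mean log2 fold change of -0.91 ± 0.12 (edgeR adjusted p = 0.00637), Jun of -0.91 ± 0.15 (0.0219), Jund of -0.55 ± 0.091 (0.0212) and Egr1 of -2.16 ± 0.42 (0.0379). All 10 differences were negative, with a median of -0.50. In the 8 fits that left out 1 library, Btg2 was called in 7 (not without 4-week KO replicate 1, adjusted p = 0.0543), Jun in 3, Egr1 in 3 and Jund in 2, with differences between -1.07 and -0.79 for Jun, between -2.51 and -1.44 for Egr1 and between -0.57 and -0.53 for Jund. Without both libraries in conflict Btg2 was at -1.07, Jun at -1.15 and Egr1 at -2.75, all called, and Jund at -0.56 with adjusted p = 0.0721. With the labels of these libraries exchanged 3 members were called, among 29 genes in all. Egr1 was 1 of them (-2.30, adjusted p = 0.0357), and values of the others are not given here. Jun (-0.76, adjusted p = 0.267), Jund (-0.33, 0.533) and Btg2 (-0.71, 0.25) were not called.

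Heat shock genes, also induced by handling and stress, had 2 of 12 called over both ages. Hspa1a was at 5.80 and 1.45 CPM in KO, against 59.4 and 36.2 CPM in WT, at 10 weeks, and at 3.87 and 5.40 CPM in KO, against 18.4 and 11.01 CPM in WT, at 4 weeks (-2.64 ± 0.47, edgeR adjusted p = 0.0271). Hspa1b behaved likewise (-2.60 ± 0.43, adjusted p = 0.0212). These are near-identical copies whose reads counting may have split, so neither value is certain on its own, and each was called in 3 of the 8 fits that left out a library. With the 10-week labels exchanged the values were -1.22 (adjusted p = 0.739) for Hspa1a and -1.28 (adjusted p = 0.701) for Hspa1b.

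The KO difference at 10 weeks was less negative or more positive than at 4 weeks for all 10 members, by 0.16 (Fosl2) to 1.63 (Fosb) on the log2 scale. By edgeR 0 of 10 were called for this genotype by age term, where 0.188% of all genes were; 1 had an unadjusted p under 0.05, against 8.65% of all genes, and DESeq2 called 0 members and 88 genes. Junb, whose KO difference was -0.18 ± 0.26 at 10 weeks and -1.16 ± 0.27 at 4 weeks, had a term of 0.98 ± 0.37 (adjusted p = 0.517). The effect of the knockout on these genes was not shown to differ with age.

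Between ages within a genotype, 2 members were higher in KO cells at 10 than at 4 weeks. All 4-week libraries had Xist under 1 CPM and titles of the same number series. Each 10-week group joins a library of that series with high Xist and one of the other series with low Xist. No 10-week library thus matches a 4-week one in both sex and title series, and age cannot be told apart from these. Junb was at 183 and 122 CPM at 10 weeks, against 77.6 and 80.3 CPM at 4 weeks (0.95 ± 0.27, adjusted p = 0.0455), and Jund at 284 and 266 CPM, against 174 and 179.6 CPM (0.64 ± 0.13, adjusted p = 0.0111). Each pair of groups was well separated, in a comparison in which 4.89% of all genes were called higher and 9.73% in either direction. Differences were positive for all 10 members, and in 8 the 10-week KO libraries both lay above the 4-week KO libraries, against 29.4% of all genes. Egr1 (1.998 ± 0.63, adjusted p = 0.0673) and Fosl2 (0.62 ± 0.20, adjusted p = 0.0750) did not pass. Both calls were lost without 10-week KO replicate 1, the library with the conflicting code (adjusted p 0.277 for Junb and 0.0571 for Jund), and without either 4-week KO library (0.179 and 0.213 for Junb, 0.0809 and 0.0880 for Jund). With the labels of the 10-week libraries in conflict exchanged, Junb (0.62, adjusted p = 0.0458) and Jund (0.88, adjusted p = 0.0214) were called. Markers of other cells differed between the same KO groups. Erythroid markers summed to between 48.2 and 53.1 CPM at 10 weeks and between 348 and 643 CPM at 4 weeks (3 of 5 tested fell), and epithelial markers to between 303 and 414 CPM at 10 weeks and between 58.8 and 220.0 CPM at 4 weeks (2 of 8 rose). T cell markers summed to between 205 and 237 CPM at 10 weeks and between 131 and 139.8 CPM at 4 weeks. Of the 7 T cell markers tested 1 was called higher, but 5 had negative and 2 positive differences, so the sum does not describe most of them. Monocyte markers summed to between 121 and 143 CPM at 10 weeks and between 63.1 and 75.6 CPM at 4 weeks. Of the 7 monocyte markers tested 1 was called higher, with 6 positive and 1 negative. The part of all these markers was not tested.

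In WT cells 0 members were called between 10 and 4 weeks by edgeR, where 2.11% of all genes were; 2 had an unadjusted p under 0.05, against 18.6% of all genes, and DESeq2 called 1 member and 666 genes. Jund was at 368 and 384 CPM at 10 weeks, against 285 and 269.9 CPM at 4 weeks (0.44 ± 0.13, adjusted p = 0.0967). Fosl2 was at 315 and 319 CPM at 10 weeks, against 231 and 232 CPM at 4 weeks (0.45 ± 0.20, adjusted p = 0.250). These 2 were the members whose WT groups did not overlap and were higher at 10 weeks, as 27.8% of all genes were. Of the other immediate early transcription factors in KO cells, Nfil3 (0.83 ± 0.16, adjusted p = 0.00887) and Nr4a1 (0.89 ± 0.22, adjusted p = 0.0301) were higher at 10 weeks. Myc was lower (-0.57 ± 0.16, adjusted p = 0.05 after rounding, below the threshold). Rhob (0.61 ± 0.13) and Mcl1 (0.44 ± 0.10) were among 3 of 25 feedback genes called higher (adjusted p 0.0128 and 0.0206). In the 4 fits that left out a library, each of these named genes was called in 1 except Myc, which was called in 0. With the labels of the 10-week libraries in conflict exchanged, Nr4a1 was not called (0.21, adjusted p = 0.705). Nfil3, Myc, Rhob and Mcl1 were called in that fit (adjusted p 0.0172 to 0.0359).

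In cultured WT cells, 50 nM VD3 for 24 h raised Jund, Fosl2 and Junb, 3 of 10 members where 638 of 12748 genes tested were called higher and 10.6% were called in either direction. Jund was at 325 and 360.3 CPM with VD3, against 142 and 191 CPM without (1.04 ± 0.13, edgeR adjusted p = 0.000419). Fosl2 was at 144 and 191 CPM with VD3, against 87.7 and 84.3 CPM without (0.96 ± 0.20, adjusted p = 0.0107). Junb was at 283 and 252 CPM with VD3, against 141 and 145 CPM without (0.91 ± 0.26, adjusted p = 0.0482). In each of the 3 both treated libraries stood well above both untreated ones.

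Differences for Jun (83.6 and 101 CPM with VD3, against 56.8 and 78.5 CPM without; 0.45 ± 0.22, adjusted p = 0.240) and Btg2 (61.1 and 75.0 CPM, against 45.0 and 52.0 CPM; 0.49 ± 0.17, adjusted p = 0.102) were in the same direction without passing, and their groups did not overlap. Fosb rested on 9 and 9 counts with VD3 and on 2 and 3 counts without (1.63 ± 2.09, adjusted p = 0.709). These are 6 members with VD3 libraries above those without, against 24.2% of all genes. Fos was at 23.5 and 31.8 CPM with VD3, against 42.3 and 28.9 CPM without (-0.38 ± 0.34, adjusted p = 0.569), and Atf3 at 303 and 259 CPM, against 325 and 246 CPM (-0.02 ± 0.22, adjusted p = 0.967). Egr1 (0.45 ± 0.74, adjusted p = 0.785) and Ier2 (0.09 ± 0.18, adjusted p = 0.829) overlapped between the groups as these did.

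The call of Jund held with each of the 4 libraries left out (adjusted p 0.000140 to 0.00231). That of Fosl2 was lost without VD3 replicate 3 (0.75, adjusted p = 0.0609), and that of Junb with any 1 library left out (0.0771 to 0.236). By title series, the differences were 1.19 and 0.91 for Jund, 0.71 and 1.18 for Fosl2 and 1.01 and 0.80 for Junb. Vdr message was at 72.1 and 42.4 CPM with VD3, against 7.82 and 7.61 CPM without. T cell markers summed to between 124 and 138 CPM with VD3 and between 220 and 227 CPM without. Monocyte markers (8 symbols) summed to between 91.8 and 107 CPM with VD3 and between 106 and 169.6 CPM without. The markers within each list disagreed: of 7 tested in each, 1 was called lower, with 4 negative and 3 positive differences. The part of these markers was not tested.

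None of 12 other AP-1 proteins and partners was called with VD3. Among 13 other immediate early transcription factors 1 rose, Myc (0.65 ± 0.17, adjusted p = 0.0332), and 3 fell: the orphan receptor Nr4a1 (1.48 and 2.04 CPM with VD3, against 6.02 and 5.99 CPM without; -1.80 ± 0.29, adjusted p = 0.00238), Klf4 (-1.35 ± 0.26, adjusted p = 0.00647) and Klf2 (-1.14 ± 0.31, adjusted p = 0.0382). Of 25 feedback and signalling genes 3 rose and 0 fell. Plk2, a polo-like kinase, was at 431 and 454 CPM with VD3, against 51.9 and 59.0 CPM without (2.999 ± 0.23, adjusted p = 2.36e-05), and Gadd45b (1.53 ± 0.29, adjusted p = 0.00574) and the NF-κB inhibitor Tnfaip3 (0.96 ± 0.19, adjusted p = 0.00636) rose less. Klf2 was called in 0 and Myc in 1 of 4 fits that left out a library, and Klf4, Gadd45b and Tnfaip3 in 3.

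In the signalling pathway upstream of AP-1, 2 of 25 genes rose with VD3 and 5 fell. The kinase Map2k2, which activates ERK, was at 271 and 300.2 CPM with VD3, against 114 and 137 CPM without (1.19 ± 0.12, adjusted p = 9.98e-05), and Elk1 rose by 0.95 ± 0.16 (adjusted p = 0.00228). Mapk14, the p38α kinase, fell (-0.66 ± 0.13, adjusted p = 0.00775; 0.0551 without VD3 replicate 1). Of 12 genes with AP-1 sites 3 rose and 2 fell. Mmp13, a collagenase, was at 15.1 and 25.4 CPM with VD3, against 1.92 and 0.567 CPM without (3.95 ± 0.53, adjusted p = 0.000595), and Spp1, osteopontin, rose by 2.08 ± 0.43 (adjusted p = 0.00993; called in 2 of 4 fits with a library left out).

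**Figure D3:**
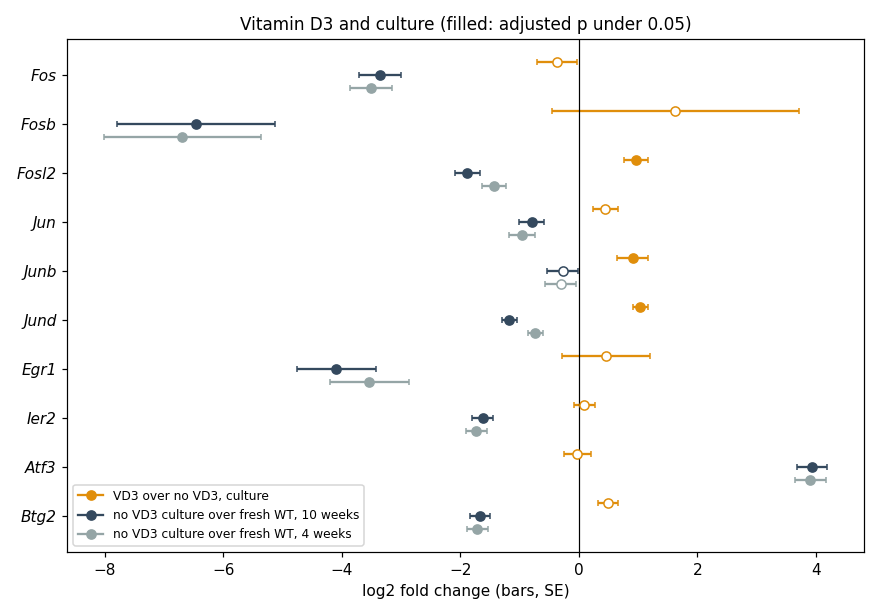
Log2 fold change (horizontal axis) of each gene for VD3 over no VD3 in culture and for untreated culture over fresh WT cells at 10 and at 4 weeks, with bars of 1 SE; filled points have an edgeR adjusted p under 0.05. Jund, Fosl2 and Junb are filled right of 0 for VD3, and 8 genes are filled left of 0 and Atf3 right of it for culture.

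Cells cultured without VD3 had far lower Fos, Fosb and Egr1 and far higher Atf3 than fresh cells. Against fresh WT cells of 10 weeks, untreated cultured cells had 8 members lower and 1 higher, in a comparison in which 42.4% of all genes were called, 21.2% in each direction. Against fresh WT cells of 4 weeks the counts were again 8 lower and 1 higher, where 39.7% of all genes were called, 19.5% lower and 20.1% higher. Both comparisons use the same untreated libraries, and culture, the age of the donors and the handling of the cells cannot be told apart.

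Fos was at 42.3 and 28.9 CPM in untreated culture, against 512 and 219 CPM in fresh WT cells at 10 weeks (-3.36 ± 0.35, adjusted p = 1.79e-05) and 448 and 369 CPM at 4 weeks (-3.51 ± 0.35, adjusted p = 1.37e-05). Egr1 was at 2.63 and 1.22 CPM in untreated culture, against 55.4 and 12.6 CPM at 10 weeks (-4.10 ± 0.67, adjusted p = 0.000467) and 31.3 and 15.5 CPM at 4 weeks (-3.53 ± 0.66, adjusted p = 0.00133). Fosb, with 5 counts over both untreated libraries, had fitted differences of -6.46 ± 1.34 and -6.69 ± 1.33 (adjusted p 0.00236 and 0.00191). Every cultured library, with or without VD3, lay below every fresh library for Fos, Fosb, Fosl2, Egr1 and Ier2, 5 of the 10 members, as for 16.6% of all genes.

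Atf3 ran the other way. It was at 325 and 246 CPM in untreated culture and at 303 and 259 CPM with VD3, against 22.4 and 14.6 CPM in fresh WT cells at 10 weeks and 21.5 and 16.8 CPM at 4 weeks (3.93 ± 0.26, adjusted p = 5.97e-07, and 3.91 ± 0.26, adjusted p = 6.63e-07). No other member had all 4 cultured libraries above all 8 fresh ones, which 18.2% of all genes had. Its dimer partners in the Jun family did not rise with it in untreated culture. With VD3, Junb was at 283 and 252 CPM, above all 8 fresh libraries (highest 222.5 CPM, in 10-week WT replicate 1).

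Ier2 (-1.63 ± 0.18 against 10 weeks and -1.73 ± 0.18 against 4 weeks), Btg2 (-1.67 ± 0.18 and -1.71 ± 0.18) and Fosl2 (-1.88 ± 0.21 and -1.43 ± 0.20) fell in culture, with adjusted p between 1.47e-05 and 0.000191. Jund fell by less (-1.17 ± 0.13, adjusted p = 2.74e-05, and -0.73 ± 0.13, adjusted p = 0.000859), and its level with VD3, 325 and 360.3 CPM, lay within the range of fresh WT cells, 269.9 to 384 CPM. Jun fell too (-0.80 ± 0.22, adjusted p = 0.0111, and -0.96 ± 0.22, adjusted p = 0.00434). Against 10 weeks its call was lost without untreated replicate 1 (-0.58) or without WT replicate 1 (-0.61). The call was also lost with the labels of the 10-week libraries in conflict exchanged (-0.67, adjusted p = 0.0824). Junb was not called (-0.27 ± 0.26, adjusted p = 0.429, and -0.31 ± 0.26, adjusted p = 0.378), but passed against 10 weeks without the libraries in conflict (-0.64, adjusted p = 0.0273).

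Other immediate early transcription factors fell in culture as well, 10 of 13 tested against 10 weeks and 11 against 4 weeks, and none rose. Nfil3 (-2.63 ± 0.18 and -1.90 ± 0.18), Myc (-1.64 ± 0.17 and -1.73 ± 0.17) and Nr4a3 (-4.19 ± 0.73 and -3.48 ± 0.73) were among them. Of the feedback genes 6 rose and 11 fell against 10 weeks, and 3 rose and 12 fell against 4 weeks: the MAP kinase phosphatase Dusp1 fell most (11.98 and 13.8 CPM in untreated culture, against 342 and 109 CPM in fresh WT cells at 10 weeks; -4.14 ± 0.50 and -3.73 ± 0.50), and Plk2 rose (4.07 ± 0.28 and 3.37 ± 0.26). Among other AP-1 proteins Batf fell (-1.59 ± 0.20 and -1.61 ± 0.20). The kinase Mapkapk2 rose (1.70 ± 0.14 and 1.41 ± 0.14), 1 of 6 upstream pathway genes higher and 10 lower against 10 weeks, with 7 higher and 6 lower against 4 weeks. Erythroid markers summed to between 0.602 and 1.86 CPM in untreated culture, against 70.6 to 161 CPM in fresh WT cells at 10 weeks and 1330 to 3149 CPM at 4 weeks, and epithelial markers to between 13.6 and 14.5 CPM, against 181 to 222 CPM and 45.2 to 90.8 CPM; Hba-a2, Hbb-b1 and Hbb-b2 were at 0 in both untreated libraries, and the part of these markers was not tested.

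Across the 8 fresh libraries the members varied together. All 45 pairs of members had a positive correlation of log2 CPM (median r 0.70, lowest 0.13), a description over libraries that share genotype, age and replicate structure. Junb (r = 0.99), Egr1 (0.96) and Ier2 (0.93) followed the mean of the other 9 most closely, and Fosl2 least (0.51). Over all 12 libraries, including culture, 33 of 45 pairs were positive, and Atf3 (r = -0.64) and Junb (0.26) parted from the rest. The 2 libraries of 4-week KO cells were the most alike of any group for these genes, with a median absolute log2 difference of 0.0786, against 0.148 over all genes; in 7 of 10 members both lay below the other 6 fresh libraries, as for 10.7% of all genes.

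The 8 other genes whose levels followed the mean of the 10 most closely over 12 libraries were Btg1 (r = 0.94), Pim1 (0.93), Zfp36 (0.91), Ier3 (0.90), Arhgap39 (0.90), Synrg (0.90), Pank4 (0.88) and Osm (0.88). Zfp36 was at 86.1 and 91.1 CPM with VD3 and 78.6 and 75.4 CPM without it in culture. In fresh cells it was at 249 and 126 CPM in KO, against 317 and 141 CPM in WT, at 10 weeks, and at 121 and 114 CPM in KO, against 352 and 209.6 CPM in WT, at 4 weeks. These genes were chosen for following the members over these libraries, so a shared pattern is fixed by the choice, and Zfp36 was not called between KO and WT at 4 weeks.

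**Figure D4:**
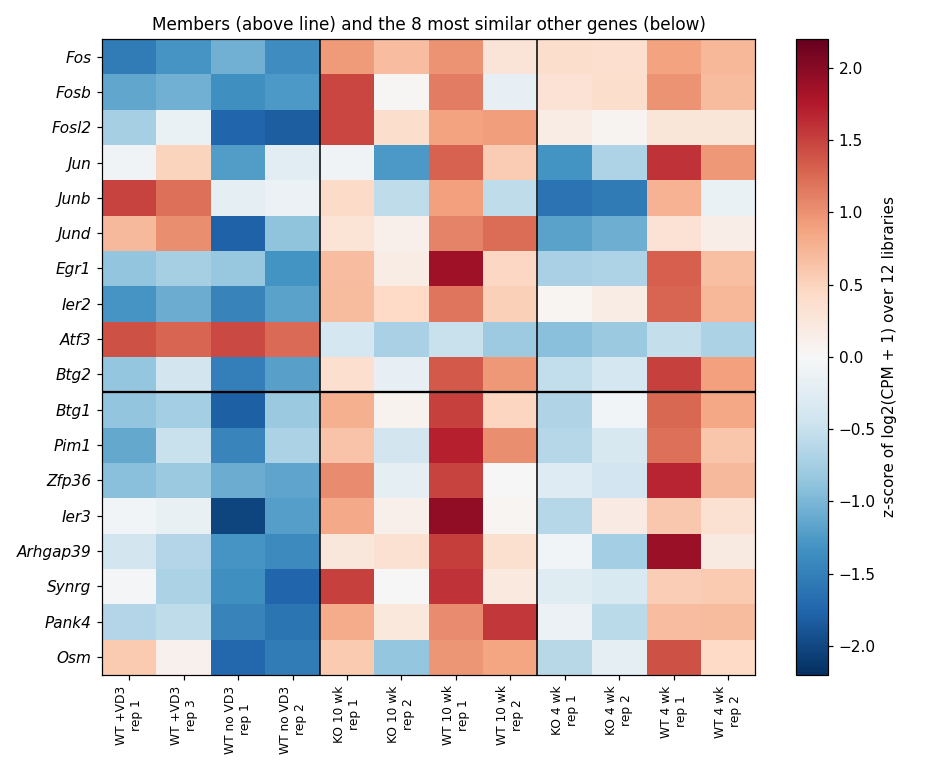
Level of the 10 members (above the line) and of the 8 genes most like their mean (below) in each library, as z-scores of log2(CPM + 1) over the 12 libraries (colour scale, red high and blue low). Most rows are blue in culture and in 4-week KO cells and red in WT replicate 1 at both ages, and Atf3 is red in culture only.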

How the data were processed

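The authors deposited raw read counts per gene for 12 libraries of mouse alveolar macrophages, and a table of log2 values for 10631 genes, which in this deposited form equal log2(CPM + 1). TopHat2, edgeR and the build mm9 were used, per the submitters' processing notes; no source used here gives their versions, the annotation, or how reads were counted and whether by strand. Per the labels' protocols, the Qiagen RNeasy Micro kit gave the RNA and the KAPA mRNA HyperPrep kit the libraries.

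The counts were tested in R 4.3.3 by edgeR (version 4.0.16, quasi-likelihood F test, TMM scaling) after filterByExpr, with a minimum count of 10 and a minimum total of 15. All 12 libraries entered 1 fit with 6 residual degrees of freedom, with Benjamini-Hochberg adjustment over 12748 genes in each of 9 contrasts, with a threshold of 0.05. Groups of 2 cannot reach a two-sided rank p below 0.333. The code was checked beforehand on simulated data.

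The members, the lists and the tests were chosen with earlier results of these data known, and the list genes named are those past the threshold, up to 6 per list and contrast; some are not reported here. CPM per kilobase uses GENCODE M21 exon lengths, promoters are from RefSeq on GRCm38.p6, and likeness is the Pearson correlation over 12 libraries with the mean z-score of the 10 members, among genes of at least 5 CPM. Alternatives were DESeq2 1.42.0 with its Wald test, its size factors, no filter, a strict filter (5 CPM in 2 libraries), the compared groups alone, a replicate block, exchanging or leaving out both libraries in conflict, and leaving out each library.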

Additional observations from a re-analysis of the deposited data

Results flagged for a closer look

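Hmox1, heme oxygenase, a gene with AP-1 sites that is no member of the set, differed between ages in its knockout effect. It was at 128 and 154 CPM in KO, against 200.5 and 198 CPM in WT, at 10 weeks, and at 985 and 991 CPM in KO, against 231 and 152 CPM in WT, at 4 weeks. The KO difference at 10 weeks minus that at 4 weeks was -2.87 ± 0.25 on the log2 scale (edgeR adjusted p = 0.000707), and it was called in 8 of 8 fits that left out a library. None of the 10 members passed this test. For Hmox1 the term was -2.27 with the labels of the 10-week libraries in conflict exchanged (edgeR adjusted p = 0.0344), and -2.75 without both.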

How the results depend on the processing

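Of 793 values of the members recomputed under the alternatives, 660 kept their direction and side of the threshold, 48 lost a call, 56 gained one and 29 changed sign; of 460 values of the named list genes the numbers were 403, 57, 0 and 0. Scaling by DESeq2 size factors and the strict filter moved no count of called members by over 1.5 times. Members called for KO against WT at 4 weeks numbered 2, and 6 with DESeq2's test (253 genes in all, against 85). They numbered 9 without a filter (690) and 8 with the compared groups alone (635). The count was 4 without the libraries in conflict (93) and 1 (Junb) with their labels exchanged (42 genes). With 1 of the 4 libraries left out calls were lost, as given above for Btg2 and Jund. At 10 weeks the count of 0 became 2 with DESeq2 (137 genes, against 14), 4 without a filter (503) and 1 after label exchange (6). Over both ages 4 (127 genes) became 7 without a filter (791), 3 after label exchange (29) and 0 to 4 with a library left out; genotype by age 0 (24 genes) became 5 without a filter. For 10 against 4 weeks, the count of 0 in WT cells (269 genes) was 1 with DESeq2 (666), 2 without a filter (1223) and 2 with the compared groups alone (606), and the 2 in KO cells (1240) became 4 (1516), 8 (2059) and 4 (1421) under these, 0 without the libraries in conflict (533) and 0 to 3 with a library left out. For VD3, 3 (1356 genes) became 5 without a filter (1989) and 1 to 2 with a library left out. In the culture comparisons the count of 9 ran from 8 to 10 against 10 weeks and was 9 under every alternative against 4 weeks. No label says that a replicate number marks a shared animal, litter or batch, though at 10 weeks it goes with sex and title series, and in culture, where the block joined libraries by title series, both replicates 1 have the source name WT1. Deviations of paired libraries correlated at -0.104 at 4 weeks, 0.107 at 10 weeks and 0.244 in culture. A replicate block called 5 members at 4 weeks (146 genes), 4 for age in KO cells (1446) and 4 for VD3 (1548). For VD3 it added Btg2 (edgeR adjusted p = 0.0392). Crossed pairs at 4 weeks, added after seeing the data, called 8 (277 genes). Signs at 10 weeks changed for Fos (-0.79 after label exchange, -0.55 without the libraries in conflict), Fosb (-2.80, -2.22), Fosl2 (-0.38, -0.36) and Atf3 (-0.65, -0.45), and in the genotype by age term for Fosb (-1.79, -1.21) and Fosl2 (-0.28, -0.26). With 1 library left out, the 10-week differences ran from -0.32 to 0.91 for Fos, -1.45 to 2.56 for Fosb, -0.37 to 0.40 for Fosl2, -0.55 to 0.33 for Junb, -2.13 to 0.0010 for Egr1, -0.44 to 0.037 for Ier2 and -0.19 to 0.56 for Atf3. The genotype by age term ran from -0.44 to 3.56 for Fosb and from -0.27 to 0.49 for Fosl2, the VD3 difference from -0.014 to 0.20 for Ier2 and from -0.21 to 0.19 for Atf3, and untreated culture against 10 weeks from -0.64 to 0.24 for Junb. The cause of these changes was not tested. Each group has 2 libraries, and Fosb in culture rests on 2 to 9 counts a library.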
